A study of Homo sapiens with 30 samples.

Results

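Interleukin-6 (IL6) and leukaemia inhibitory factor (LIF), the receptor chains that read the IL6 family of cytokines (IL6R, IL6ST, OSMR and LIFR), and 2 further cytokine receptor chains, IL4R and IL1R1, were followed across every group of a sequenced breast cancer line. These 8 genes were taken by symbol from the 20114 genes of the deposited expression table, and all 8 were present. The cells were SUM190, a long-established line from an inflammatory breast cancer, and poly-A RNA was read in 30 libraries, 2 for each of 15 groups. The study concerns JAK-STAT signalling in chemotherapy-resistant states.

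Doxorubicin-resistant cells (DR) received doxorubicin, which poisons topoisomerase II on DNA, at 350 nM or 1 µM, or DMSO, the vehicle. Paclitaxel-resistant cells (PR) received paclitaxel, which stabilises microtubules, at 6.5 or 10 nM, 15 µM ruxolitinib, which blocks the kinases JAK1 and JAK2, ruxolitinib with 6.5 nM paclitaxel, or DMSO. Parental cells (Par) received 2.5 or 10 nM paclitaxel, 65 nM or 1 µM doxorubicin, 15 µM ruxolitinib, a mixture of ruxolitinib and 2.5 nM paclitaxel, or DMSO. In all groups treatment began 24 h after seeding and lasted 72 h. The labels give ruxolitinib as 15 µM when used alone and as 15 nM in both combinations, and these doses stand here as labelled. Whether 1 of the units is an error is not known. Each resistant line is 1 line, and how it was derived is not given in the sources used here, so a difference between lines cannot be told apart from a difference between these particular derivatives.

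Most IL6-family cytokines signal through IL6ST (gp130), a receptor chain that they share. IL6 first binds IL6R, and LIF binds LIFR, which pairs with IL6ST. Oncostatin M, another cytokine of the family, can use OSMR with IL6ST. The assembled receptors activate JAK kinases bound to their tails, which phosphorylate STAT3, and STAT3 switches on target genes that include the feedback inhibitor SOCS3. IL4R, the chain that binds interleukin-4, signals through JAK kinases and STAT6, whereas IL1R1, the receptor for interleukin-1, uses MYD88 and NF-kB rather than JAK kinases, so neither belongs to the IL6 family itself. Soluble IL6R, made by shedding or splicing, lets IL6 act on cells that carry IL6ST alone.

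The promoters of IL6, OSMR and IL1R1 are shown because these were the members that ruxolitinib lowered in both parental and paclitaxel-resistant cells, as described further on. Each sequence holds the 250 bases before the annotated start of the gene from RefSeq, on build GRCh38.p14, whereas the authors aligned to GRCh37, so the coordinates belong to the RefSeq build alone. IL6 lies at chr7:22726950-22727199 on the plus strand, OSMR at chr5:38845762-38846011 on the plus strand, and the start of IL1R1 shown here, 1 of 4 in the table and picked because it was the only one of them with a motif match, at chr2:102142056-102142305 on the plus strand. Picking that start of IL1R1 fixed in advance that its window holds a match, and which start these cells use was not tested. Capitals mark the motif matches named after the sequences.
IL6: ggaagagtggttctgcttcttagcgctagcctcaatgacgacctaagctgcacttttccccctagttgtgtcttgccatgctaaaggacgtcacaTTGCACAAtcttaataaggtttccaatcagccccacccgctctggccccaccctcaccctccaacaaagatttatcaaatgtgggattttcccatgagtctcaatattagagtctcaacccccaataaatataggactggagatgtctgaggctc
OSMR: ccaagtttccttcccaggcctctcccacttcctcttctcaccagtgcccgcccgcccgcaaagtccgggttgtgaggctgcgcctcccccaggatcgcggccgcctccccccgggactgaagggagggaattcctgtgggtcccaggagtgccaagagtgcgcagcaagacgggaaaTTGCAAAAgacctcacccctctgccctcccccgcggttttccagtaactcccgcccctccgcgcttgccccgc
IL1R1: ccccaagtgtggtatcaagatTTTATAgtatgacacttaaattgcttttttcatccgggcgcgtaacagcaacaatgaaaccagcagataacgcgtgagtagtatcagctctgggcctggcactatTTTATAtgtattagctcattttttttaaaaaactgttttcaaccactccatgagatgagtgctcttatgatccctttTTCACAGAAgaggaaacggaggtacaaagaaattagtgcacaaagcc

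Motifs were searched on both strands of these windows by their letters. The IL6 window held TTGCACAA at positions -155 to -148, a match to TTGCNNAA, the letters of a C/EBP site. The OSMR window held TTGCAAAA at -73 to -66, again a match to TTGCNNAA. The IL1R1 window held TTCACAGAA at -47 to -39, a match to the STAT palindrome TTCNNNGAA, and TTTATA, the reverse complement of TATAAA, beginning at -229 and at -124. Among 35116 promoter windows of the same length, 9.05% held TTGCNNAA, 6.57% TTCNNNGAA and 10.7% TATAAA. The AP-1 letters TGANTCA, held by 6.57% of them, matched in none of the 12 windows searched, which says only that these letters are not there. The windows covered 7 of the 8 members, and no promoter of LIF was searched. No TTCNNNGAA occurred in the IL6 or OSMR window, and of the other windows searched, 2 of the 3 starts of LIFR held it.

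Libraries held 18443749 to 32669995 reads assigned to genes. Levels are in CPM, read counts scaled to a common library size, and 3 reads, the most that a zero count allows, correspond to 0.0947 to 0.163 CPM (counting error only). Fold changes are on the log2(CPM + 1) scale, ± SE, which understates changes of genes near or below 1 CPM, as for IL6 in paclitaxel-resistant cells. Adjusted p values come from limma with Benjamini-Hochberg adjustment over 12743 tested genes within each comparison, and a gene rose or fell where its adjusted p was under 0.05. Whether the 2 libraries of a group came from separate cultures is not stated, so their spread, on which the p values rest, may be technical. Epithelial markers marked every library, with EPCAM between 306 and 441 CPM and ERBB2 between 1516 and 3736 CPM. Of 6 fibroblast markers, COL1A1 reached 4.31 to 11.99 CPM, and COL1A2, COL3A1, DCN, LUM and PDGFRB stayed under 1 CPM in all libraries. Among the leukocyte markers, CD3E and LYZ stayed under 1 CPM in all libraries and PTPRC ran between 0 and 5.96 CPM, while CD68, which is not confined to leukocytes, gave 6.77 to 36.5 CPM. The endothelial markers CDH5 and VWF together gave 1.96 to 7.92 CPM. Measured by chi-square of their counts, divided by its degrees of freedom, the replicates of parental DMSO cells, on which many comparisons rest, differed most (38.0), and by Pearson's r those of parental cells with 1 µM doxorubicin (0.993). The difference between the replicates followed the GC content of the transcripts in several groups. Across genes, Spearman's rho of that difference with GC content was 0.80 in parental DMSO cells, -0.73 with 1 µM and 0.57 with 65 nM doxorubicin, -0.67 with 10 nM paclitaxel and 0.68 in the combination in parental cells, and -0.69 with 350 nM doxorubicin in DR cells.

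The members differed in level and in range. IL6 spanned the widest range, from 0.456 CPM in paclitaxel-resistant cells with ruxolitinib to 107 CPM in parental cells with 1 µM doxorubicin, a ratio of group means of 234.6. The ratio of the highest to the lowest group mean was 6.14 for IL1R1, 3.94 for LIF, 3.77 for IL6R, 3.62 for OSMR, 3.4 for IL6ST, 2.41 for IL4R and 2.16 for LIFR. Levels of different genes can be compared only per length of transcript. On the scale of CPM per kilobase, parental DMSO cells had 44.8 for LIF, 38.9 for OSMR, 28.2 for IL6ST, 10.5 for IL6, 7.78 for IL4R, 6.43 for IL6R, 6.36 for IL1R1 and 1.25 for LIFR. In parental cells with 1 µM doxorubicin the order on the same scale was led by IL6 (70.1) and IL6ST (62.8), with LIF at 17.5, IL6R at 15.9, and OSMR at 10.7. All 8 genes passed the filter on low values in the test.

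**Figure D1:**
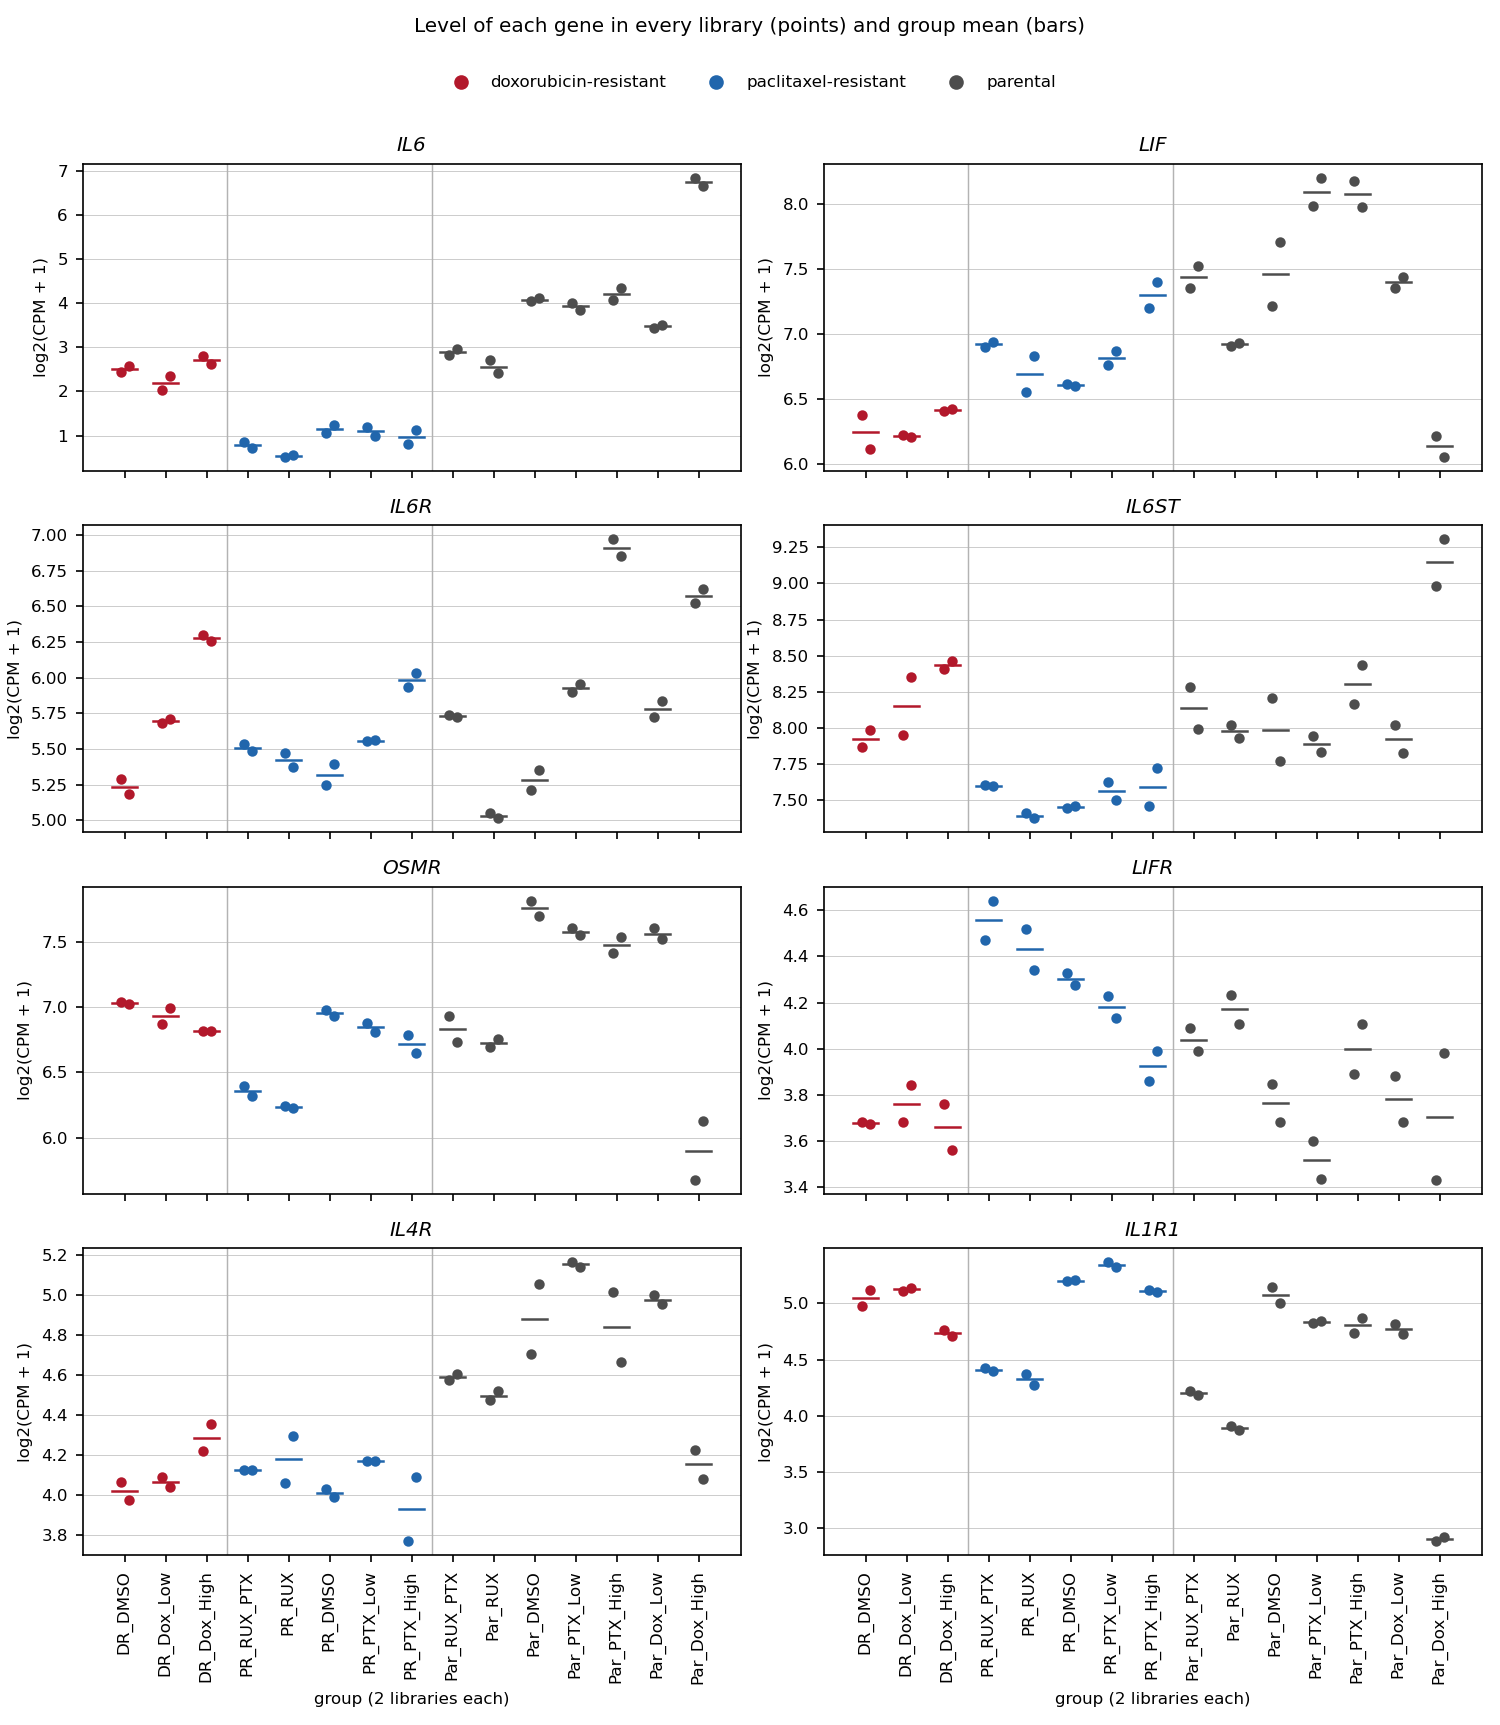
Level of each member as log2(CPM + 1) in each of the 15 groups, with libraries as points and group means as bars, by line; the y axes do not start at 0 and differ between panels. The libraries of parental cells with 1 µM doxorubicin stand at the top for IL6 (114 and 99.6 CPM) and at the bottom for IL1R1 (6.36 and 6.56 CPM).

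Both cytokines were lower in the resistant lines than in parental cells without drug. IL6 had 4.42 and 4.96 CPM in DR cells, 1.10 and 1.38 CPM in PR cells and 15.5 and 16.5 CPM in parental cells, all in DMSO. The libraries of the 3 lines did not overlap, and PR cells were lowest. The log2 fold change of IL6 was -1.58 ± 0.14 in DR cells (adjusted p = 5.93e-09) and -2.93 ± 0.14 in PR cells (adjusted p = 1.16e-13), which are 0.294 and 0.0774 of the parental mean CPM. Between the resistant lines, IL6 was higher in DR than in PR cells by 1.35 ± 0.14 (adjusted p = 5.00e-08). In bulk RNA, fewer cells that express a gene and less RNA of it per cell cannot be told apart.

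LIF had 82.0 and 68.2 CPM in DR cells, 97.1 and 96.0 CPM in PR cells and 148 and 208 CPM in parental cells. Both parental libraries lay above all 4 resistant ones, although they differed from each other by more than the resistant replicates did. LIF fell by 1.22 ± 0.13 on the log2 scale in DR cells (adjusted p = 7.73e-08) and by 0.85 ± 0.13 in PR cells (adjusted p = 1.15e-05). LIF was lower in DR than in PR cells by a log2 of -0.36 ± 0.13 (adjusted p = 0.0276), but this call was lost without DR replicate 2 (-0.23, adjusted p = 0.293), without PR replicate 1 (-0.36, adjusted p = 0.113), without PR replicate 2 (-0.37, adjusted p = 0.0955) and without the filter on low values (adjusted p = 0.0799).

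The receptor chains split. OSMR had 130 and 129 CPM in DR cells, 125 and 121 CPM in PR cells and 224 and 206 CPM in parental cells. IL4R had 15.8 and 14.7 CPM in DR cells, 15.3 and 14.9 CPM in PR cells and 25.1 and 32.3 CPM in parental cells. For both genes the resistant libraries lay below the parental ones. OSMR changed by -0.72 ± 0.10 in DR cells (adjusted p = 6.35e-06) and by -0.80 ± 0.10 in PR cells (adjusted p = 1.36e-06), and IL4R by -0.86 ± 0.12 in DR cells (adjusted p = 6.29e-06) and by -0.87 ± 0.12 in PR cells (adjusted p = 4.47e-06). Between DR and PR cells, the 95% interval of the log2 difference ran from -0.13 to 0.28 for OSMR and from -0.24 to 0.26 for IL4R.

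IL6R, the IL6-binding chain, did not pass the test in either resistant line. It had 38.0 and 35.3 CPM in DR cells, 36.9 and 41.0 CPM in PR cells and 36.1 and 39.9 CPM in parental cells, which overlap. The 95% intervals of its log2 fold change ran from -0.21 to 0.11 in DR cells and from -0.12 to 0.19 in PR cells. IL1R1 had 30.5 and 33.7 CPM in DR cells, 35.7 and 36.1 CPM in PR cells and 34.4 and 31.0 CPM in parental cells. It likewise missed the threshold in both lines, at -0.03 ± 0.08 in DR cells and 0.13 ± 0.08 in PR cells.

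IL6ST and LIFR passed the test in PR cells and not in DR cells. IL6ST, the shared chain, had 232 and 253 CPM in DR cells, 173 and 175 CPM in PR cells and 294 and 218 CPM in parental cells. LIFR, which is needed for the response to LIF, had 11.8 CPM in both DR libraries, 19.1 and 18.4 CPM in PR cells and 13.4 and 11.8 CPM in parental cells. PR libraries were thus the lowest for IL6ST and the highest for LIFR. In PR against parental cells IL6ST changed by -0.53 ± 0.14 (adjusted p = 0.00460) and LIFR by 0.54 ± 0.14 (adjusted p = 0.00344). The call of IL6ST was lost without parental DMSO replicate 1, where the log2 fold change was -0.32 (adjusted p = 0.109). The difference between the resistant lines was tested directly: DR cells were higher than PR cells in IL6ST by 0.47 ± 0.14 (adjusted p = 0.0103) and lower in LIFR, at -0.62 ± 0.14 (adjusted p = 8.51e-04). The call of IL6ST between these lines was lost without DR replicate 2 (0.41, adjusted p = 0.0902) and without PR replicate 1 (0.47, adjusted p = 0.0584).

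In DR against parental cells, 4 of 8 members fell and none rose, beside 27.5% of all tested genes called, 12.3% higher and 15.2% lower. The median log2 fold change of the members was -0.41, against -0.01 over all tested genes. In PR against parental cells, 1 member rose and 5 fell, beside 32.6% of all tested genes, 16.3% higher and 16.3% lower, with medians of -0.67 for the members and -0.01 for all tested genes. Both comparisons share the parental DMSO libraries. In DR against PR cells, 2 members were higher and 2 lower, so 4 of 8 were called, beside 34.0% of all tested genes. Whether these shares differ was not tested. Summed leukocyte markers were 20.1 to 22.8 CPM in DR cells, 9.74 to 10.6 CPM in PR cells and 18.1 to 19.4 CPM in parental cells, mostly CD68, and their part in these results was not tested.

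**Figure D2:**
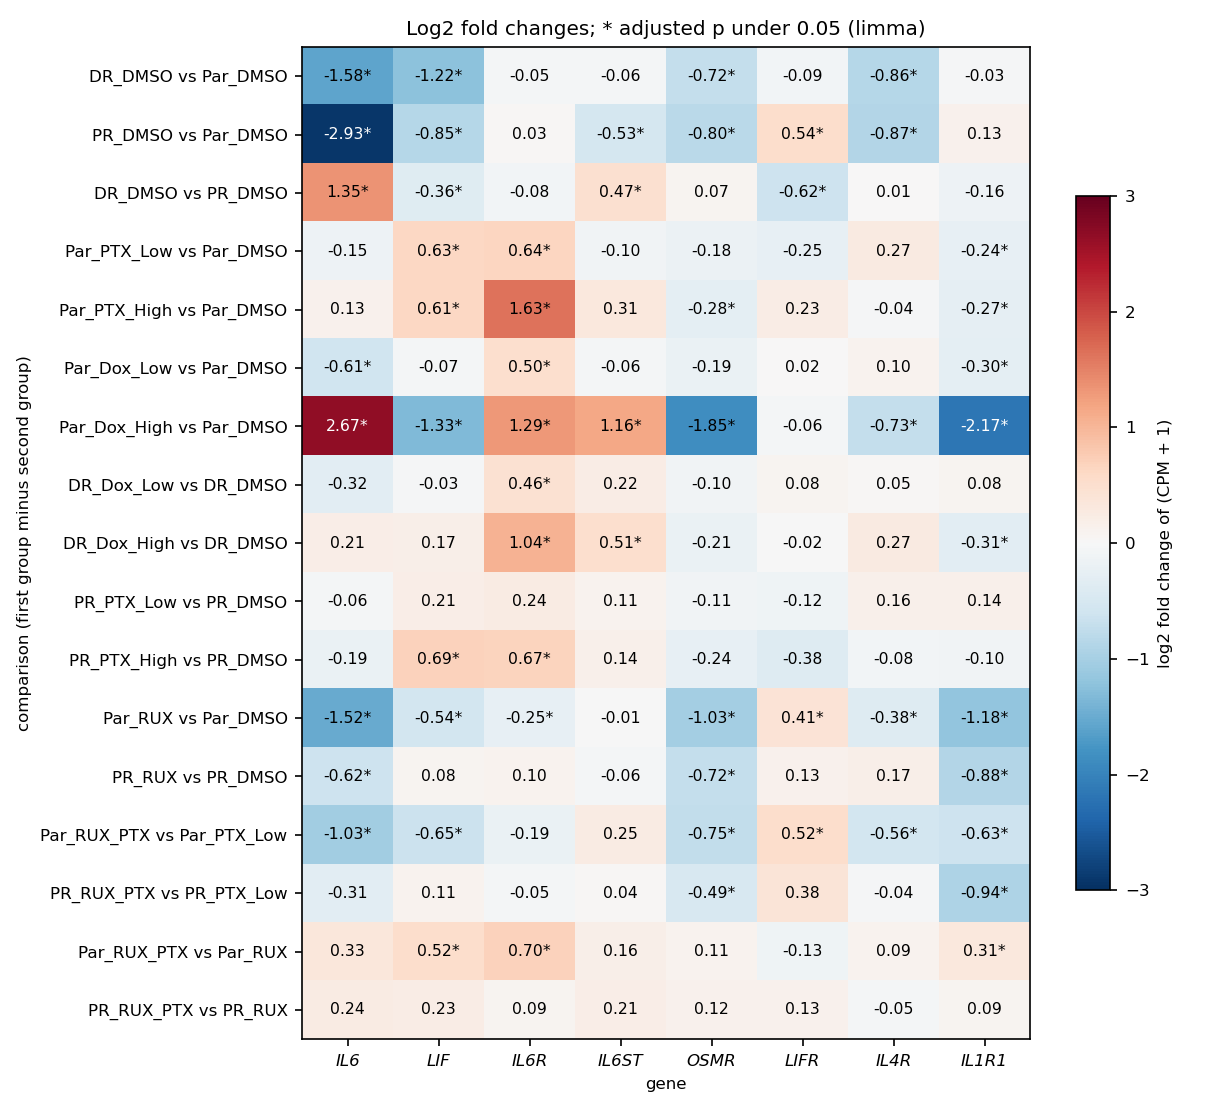
Log2 fold changes of the 8 members (columns) in the 17 comparisons of a pair of groups (rows, first group minus second), coloured from blue (lower) to red (higher), with an asterisk where limma's adjusted p was under 0.05. The column of IL6R is red for chemotherapy and near 0 between lines (-0.05 and 0.03 against parental cells), and the columns of OSMR and IL1R1 are blue in all 4 rows of ruxolitinib against its control.

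IL6R rose with the high dose of chemotherapy in every line. In DR cells it had 38.0 and 35.3 CPM in DMSO, 50.5 and 51.3 CPM at 350 nM doxorubicin and 77.8 and 75.3 CPM at 1 µM. In parental cells it had 36.1 and 39.9 CPM in DMSO, 51.9 and 56.0 CPM at 65 nM doxorubicin and 91.1 and 97.5 CPM at 1 µM. The libraries of successive doses did not overlap in either line. Under 1 µM doxorubicin IL6R rose by 1.04 ± 0.08 in DR cells (adjusted p = 5.07e-10) and by 1.29 ± 0.08 in parental cells (adjusted p = 3.54e-13). At the low doses it rose by 0.46 ± 0.08 in DR cells (adjusted p = 8.09e-04) and by 0.50 ± 0.08 in parental cells (adjusted p = 1.92e-04), although these low doses differ between the lines.

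Paclitaxel gave the same direction for IL6R. In PR cells it had 36.9 and 41.0 CPM in DMSO, 45.9 and 46.3 CPM at 6.5 nM and 60.2 and 64.4 CPM at 10 nM. In parental cells it had 36.1 and 39.9 CPM in DMSO, 58.7 and 60.9 CPM at 2.5 nM and 124 and 114 CPM at 10 nM. IL6R rose by 0.67 ± 0.08 at 10 nM in PR cells (adjusted p = 2.71e-06), and by 0.64 ± 0.08 at 2.5 nM (adjusted p = 9.80e-06) and 1.63 ± 0.08 at 10 nM (adjusted p = 2.40e-13) in parental cells. At 6.5 nM in PR cells its log2 fold change was 0.24 ± 0.08 with an adjusted p of 0.420. The mean CPM of IL6R at 10 nM was 1.60 times that of DMSO in PR cells and 3.14 times in parental cells.

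**Figure D3:**
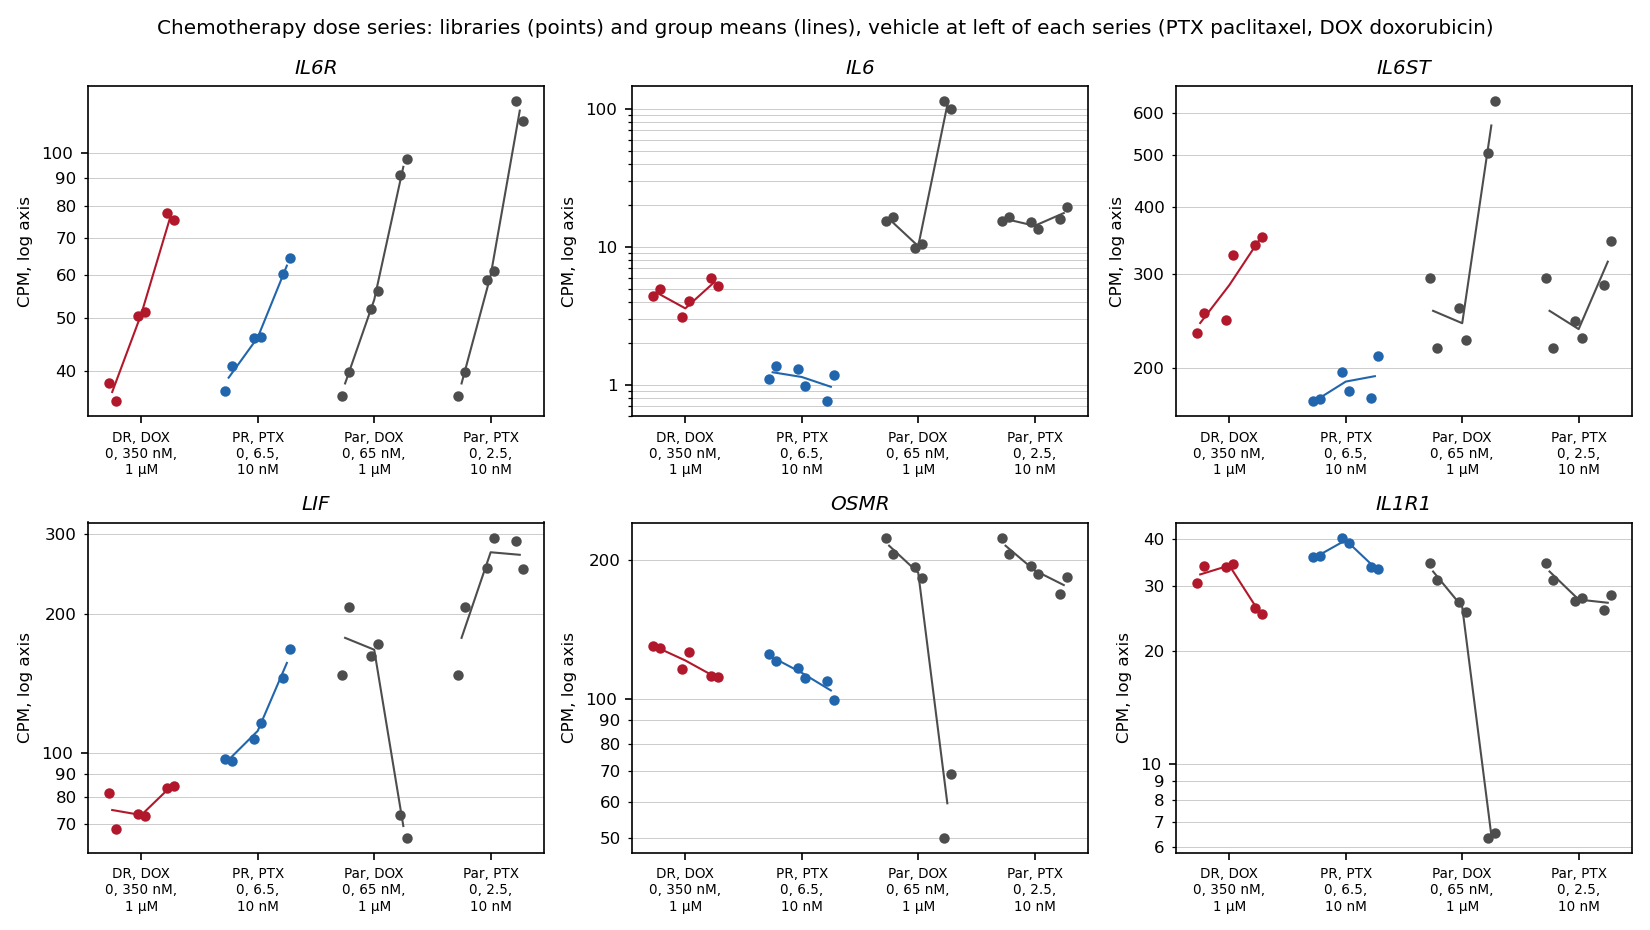
CPM on a log axis for 6 members over the 4 dose series, with DMSO at the left of each series and doses rising to the right; points are libraries and lines join group means. IL6R climbs in all 4 series, whereas the steepest step of IL6 is in parental cells, with means of 10.1 CPM at 65 nM and 107 CPM at 1 µM doxorubicin.

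IL6 itself responded to doxorubicin in parental cells, in opposite directions at the low and the high dose. It had 15.5 and 16.5 CPM in DMSO, 9.85 and 10.4 CPM at 65 nM and 114 and 99.6 CPM at 1 µM. The low-dose libraries lay below the DMSO libraries and the high-dose libraries far above every other library of the series. At 65 nM the log2 fold change was -0.61 ± 0.14 (adjusted p = 0.00620), a call lost without replicate 2 of that dose (-0.64, adjusted p = 0.0560). At 1 µM it was 2.67 ± 0.14 (adjusted p = 3.59e-14), or 6.70 times the DMSO mean CPM. In DR cells IL6 had 4.42 and 4.96 CPM in DMSO, 3.11 and 4.07 CPM at 350 nM and 5.96 and 5.18 CPM at 1 µM, and no dose passed the test. Paclitaxel did not change IL6 past the threshold at any dose. At 10 nM the 95% interval of its log2 fold change ran from -0.48 to 0.10 in PR cells and from -0.16 to 0.42 in parental cells.

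LIF moved with paclitaxel rather than doxorubicin, except at the high doxorubicin dose in parental cells. In PR cells it had 97.1 and 96.0 CPM in DMSO, 107 and 116 CPM at 6.5 nM paclitaxel and 146 and 168 CPM at 10 nM. In parental cells it had 148 and 208 CPM in DMSO, 252 and 294 CPM at 2.5 nM and 289 and 251 CPM at 10 nM. LIF rose by 0.69 ± 0.13 at 10 nM in PR cells (adjusted p = 6.60e-04) and by 0.61 ± 0.13 at 10 nM in parental cells (adjusted p = 3.60e-04). At 2.5 nM in parental cells it rose by 0.63 ± 0.13 (adjusted p = 0.00168). Without parental DMSO replicate 1 the value at 10 nM was 0.37 (adjusted p = 0.0235), and the call at 2.5 nM was lost (0.39, adjusted p = 0.0882), as it was without replicate 2 of the 2.5 nM group (0.52, adjusted p = 0.0560).

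With 1 µM doxorubicin LIF had 83.8 and 84.8 CPM in DR cells and 73.2 and 65.4 CPM in parental cells. In parental cells this was a fall by 1.33 ± 0.13 on the log2 scale (adjusted p = 1.49e-09), to a level that overlapped that of untreated DR cells. In DR cells the log2 fold change was 0.17 ± 0.13 with an adjusted p of 0.301. IL6 and LIF therefore changed in opposite directions under 1 µM doxorubicin in parental cells.

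IL6ST rose with 1 µM doxorubicin in both lines. It had 339 and 351 CPM at 1 µM against 232 and 253 CPM in DMSO in DR cells, and 506 and 632 CPM at 1 µM against 294 and 218 CPM in DMSO in parental cells. The treated libraries lay above the DMSO libraries of the same line. The log2 fold change was 0.51 ± 0.14 in DR cells (adjusted p = 0.00582) and 1.16 ± 0.14 in parental cells (adjusted p = 7.98e-08). The call in DR cells was lost without DMSO replicate 1 (0.45, adjusted p = 0.0609). With paclitaxel, no dose changed IL6ST past the threshold on the deposited values. At 10 nM in parental cells its log2 fold change was 0.31 ± 0.14 (adjusted p = 0.0666), and it passed without parental DMSO replicate 1 (0.53, adjusted p = 0.00779), without replicate 1 of that dose (0.45, adjusted p = 0.0369), with median-of-ratios scaling (0.34, adjusted p = 0.0498) and after correction for GC content and length (0.45, adjusted p = 1.55e-07). At 10 nM in PR cells it was 0.14 ± 0.14 (adjusted p = 0.544), and 0.31 after that correction (adjusted p = 2.45e-04).

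OSMR and IL1R1 fell together under 1 µM doxorubicin in parental cells. OSMR had 50.1 and 68.9 CPM at 1 µM against 224 and 206 CPM in DMSO, and IL1R1 had 6.36 and 6.56 CPM against 34.4 and 31.0 CPM. These were the lowest libraries of the series for IL1R1, and for OSMR as well. OSMR changed by -1.85 ± 0.10 (adjusted p = 8.17e-14) and IL1R1 by -2.17 ± 0.08 (adjusted p = 3.93e-17), or 0.198 of the DMSO mean CPM for IL1R1. In DR cells at 1 µM, OSMR had 112 CPM in both treated libraries against 130 and 129 CPM in DMSO, with a log2 fold change of -0.21 ± 0.10 (adjusted p = 0.104). It passed at the same size after correction for GC content and length (adjusted p = 0.00652) and in a fit of those lines alone (adjusted p = 0.0393). IL1R1 had 26.2 and 25.2 CPM at 1 µM against 30.5 and 33.7 CPM in DMSO in DR cells and fell by 0.31 ± 0.08 (adjusted p = 0.00256), a call lost without DMSO replicate 2 (-0.24, adjusted p = 0.0606).

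Smaller declines of these receptors were called in parental cells at other doses and rest on single libraries. IL1R1 changed by -0.30 ± 0.08 at 65 nM doxorubicin (adjusted p = 0.0130), by -0.24 ± 0.08 at 2.5 nM paclitaxel (adjusted p = 0.0258) and by -0.27 ± 0.08 at 10 nM paclitaxel (adjusted p = 0.00632). OSMR changed by -0.28 ± 0.10 at 10 nM paclitaxel (adjusted p = 0.0252). Without parental DMSO replicate 1 all 4 calls were lost, with IL1R1 at -0.23 (adjusted p = 0.186), -0.17 (adjusted p = 0.318) and -0.20 (adjusted p = 0.0947) in the same order, and OSMR at -0.22 (adjusted p = 0.154). Each was also lost without a treated library: IL1R1 without replicate 2 of 65 nM doxorubicin (-0.26, adjusted p = 0.205), without replicate 1 (-0.23, adjusted p = 0.0786) or 2 (-0.25, adjusted p = 0.126) of 2.5 nM paclitaxel and without replicate 1 of 10 nM paclitaxel (-0.20, adjusted p = 0.0872), and OSMR without replicate 1 of 10 nM paclitaxel (-0.22, adjusted p = 0.166). After correction for GC content and length, IL1R1 at 2.5 nM paclitaxel was at -0.13 (adjusted p = 0.131). In a fit of parental libraries alone, IL1R1 at 65 nM doxorubicin (adjusted p = 0.121) and 2.5 nM paclitaxel (adjusted p = 0.128) and OSMR at 10 nM paclitaxel (adjusted p = 0.101) missed the threshold.

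IL4R fell in parental cells with 1 µM doxorubicin, with 17.7 and 15.9 CPM against 25.1 and 32.3 CPM in DMSO (log2 fold change -0.73 ± 0.12, adjusted p = 8.44e-06). That brought it into the range of the resistant lines, where all 16 libraries had between 12.6 and 19.5 CPM. On the deposited values LIFR passed the test for no chemotherapy in any line. At 1 µM doxorubicin its 95% interval ran from -0.30 to 0.26 in DR cells and from -0.34 to 0.22 in parental cells, where the treated replicates were far apart at 9.78 and 14.8 CPM. Without replicate 2 of that group LIFR was at -0.33 (adjusted p = 0.0288). At 10 nM paclitaxel in PR cells it had 13.5 and 14.9 CPM against 19.1 and 18.4 CPM in DMSO, with a log2 fold change of -0.38 ± 0.14 (adjusted p = 0.0650), which passed in a fit of those lines alone (adjusted p = 0.00510) and with weights on the recovered reads (-0.40, adjusted p = 0.0476). At 10 nM paclitaxel in parental cells it was 0.23 ± 0.14 (adjusted p = 0.160), and 0.37 after correction for GC content and length (adjusted p = 6.47e-04).

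Under 1 µM doxorubicin in parental cells 3 members rose and 4 fell, beside 75.8% of all tested genes, 34.3% higher and 41.5% lower, so that a call alone says little there. In DR cells at 1 µM, 2 rose and 1 fell, beside 39.1% of all tested genes (19.1% higher and 19.9% lower). At 350 nM in DR cells, IL6R alone was called, beside 3.81% of all tested genes. At 65 nM in parental cells 1 member rose and 2 fell, beside 11.2%. For paclitaxel, 2 members rose and none fell at 10 nM in PR cells, beside 13.6% of all tested genes (6.62% higher and 6.99% lower). At 6.5 nM in PR cells none was called, beside 0.0942%. At 10 nM in parental cells 2 rose and 2 fell, beside 48.2% (20.1% higher and 28.1% lower), and at 2.5 nM 2 rose and 1 fell, beside 26.8%. That last share rests on single libraries: 3414 genes were called at 2.5 nM with all libraries, 476 without parental DMSO replicate 1, 5172 without DMSO replicate 2 and 535 without paclitaxel replicate 2. The median log2 fold change at 1 µM doxorubicin was 0.19 over the members and 0.00 over all tested genes in DR cells, and -0.39 over the members and -0.07 over all tested genes in parental cells. Summed leukocyte markers were 35.6 to 39.1 CPM with 10 nM paclitaxel against 18.1 to 19.4 CPM in DMSO in parental cells, and summed endothelial markers 6.83 to 7.85 CPM with 1 µM doxorubicin against 2.63 to 3.32 CPM in DMSO. The part of these markers in the results was not tested.

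Ruxolitinib lowered IL6, OSMR and IL1R1 in both lines that received it. IL6 had 0.429 and 0.483 CPM with ruxolitinib against 1.10 and 1.38 CPM in DMSO in PR cells, and 5.51 and 4.38 CPM with ruxolitinib against 15.5 and 16.5 CPM in DMSO in parental cells. In neither line did the groups overlap, and treated PR cells were the lowest of all groups. The log2 fold change was -0.62 ± 0.14 in PR cells (adjusted p = 0.00682) and -1.52 ± 0.14 in parental cells (adjusted p = 4.39e-08). As a ratio of mean CPM these are 0.369 in PR cells and 0.310 in parental cells, since the added 1 compresses changes near 1 CPM. In PR cells the value was -1.07 with 0.25 CPM added instead (adjusted p = 2.87e-04) and -1.39 in a weighted fit to the recovered reads (adjusted p = 0.0376). That call was lost without DMSO replicate 2 (-0.53, adjusted p = 0.117) and without ruxolitinib replicate 1 (-0.59, adjusted p = 0.0714) of PR cells.

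OSMR had 74.6 and 73.9 CPM with ruxolitinib against 125 and 121 CPM in DMSO in PR cells, and 103 and 107 CPM with ruxolitinib against 224 and 206 CPM in DMSO in parental cells. IL1R1 had 19.7 and 18.4 CPM with ruxolitinib against 35.7 and 36.1 CPM in DMSO in PR cells, and 14.0 and 13.7 CPM with ruxolitinib against 34.4 and 31.0 CPM in DMSO in parental cells. For both receptors the treated libraries lay well below the DMSO libraries in each line. OSMR changed by -0.72 ± 0.10 in PR cells (adjusted p = 4.42e-05) and by -1.03 ± 0.10 in parental cells (adjusted p = 1.39e-07). IL1R1 changed by -0.88 ± 0.08 in PR cells (adjusted p = 9.88e-08) and by -1.18 ± 0.08 in parental cells (adjusted p = 1.94e-10).

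IL6ST did not pass the test under ruxolitinib, with 95% intervals of the log2 fold change from -0.35 to 0.23 in PR cells and from -0.30 to 0.28 in parental cells. LIF had 92.8 and 113 CPM with ruxolitinib against 97.1 and 96.0 CPM in DMSO in PR cells, which overlap, and 119 and 121 CPM with ruxolitinib against 148 and 208 CPM in DMSO in parental cells. The fall of LIF in parental cells was -0.54 ± 0.13 (adjusted p = 0.00481), and it was lost without parental DMSO replicate 2 (-0.30, adjusted p = 0.144). Parental cells also gave calls for IL6R (-0.25 ± 0.08, adjusted p = 0.0301), IL4R (-0.38 ± 0.12, adjusted p = 0.0362) and LIFR, which rose (0.41 ± 0.14, adjusted p = 0.0491).

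These last 3 calls rested on few libraries. Without parental DMSO replicate 2, IL6R was at -0.18 (adjusted p = 0.224), IL4R at -0.21 (adjusted p = 0.361) and LIFR at 0.32 (adjusted p = 0.234). Without ruxolitinib replicate 1 they were at -0.27 (adjusted p = 0.101) for IL6R, -0.36 (adjusted p = 0.178) for IL4R and 0.34 (adjusted p = 0.272) for LIFR, and without ruxolitinib replicate 2 at -0.23 (adjusted p = 0.181), -0.41 (adjusted p = 0.127) and 0.47 (adjusted p = 0.113) in the same order. In a fit of parental libraries alone the adjusted p was 0.147 for IL6R, 0.116 for IL4R and 0.174 for LIFR. Without the filter on low values it was 0.0756 for IL4R and 0.110 for LIFR.

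**Figure D4:**
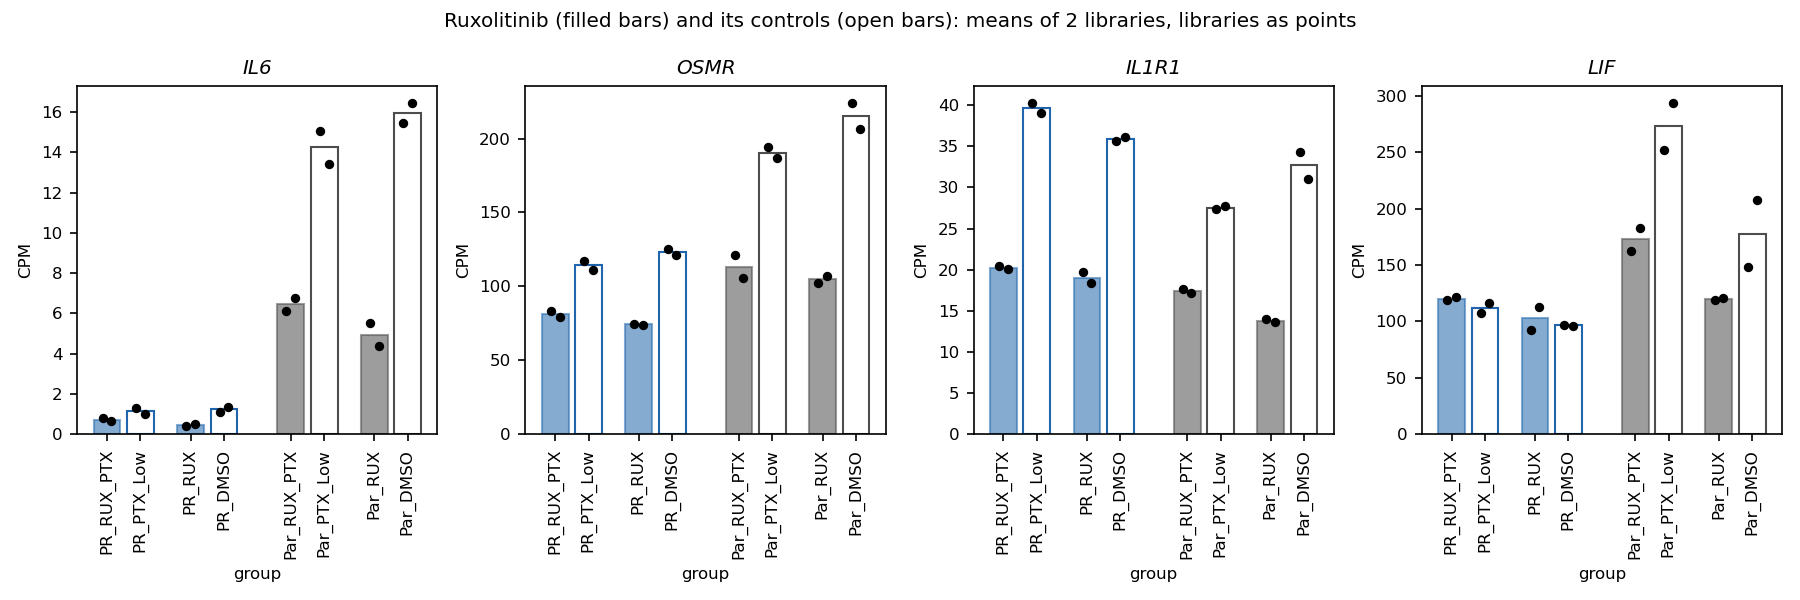
Mean CPM of IL6, OSMR, IL1R1 and LIF in groups with ruxolitinib (filled bars) beside their controls without it (open bars), in PR cells and parental cells, with the 2 libraries of each group as points. The filled bars of OSMR and IL1R1 are lower than their open neighbours in all 4 pairs, whereas for LIF in PR cells the filled bars (120.1 and 102.9 CPM) are not lower than the open ones (111.7 and 96.6 CPM).

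Against paclitaxel alone, the combination with ruxolitinib lowered 5 members in parental cells. IL6 had 6.12 and 6.78 CPM in the combination against 15.1 and 13.4 CPM with 2.5 nM paclitaxel, and LIF 163 and 183 CPM against 252 and 294 CPM. IL6 fell by 1.03 ± 0.14 (adjusted p = 1.90e-05), LIF by 0.65 ± 0.13 (adjusted p = 9.21e-04), OSMR by 0.75 ± 0.10 (adjusted p = 2.11e-05), IL4R by 0.56 ± 0.12 (adjusted p = 0.00199) and IL1R1 by 0.63 ± 0.08 (adjusted p = 5.73e-06). LIFR rose by 0.52 ± 0.14 (adjusted p = 0.00735), and lost its call without paclitaxel replicate 2 (0.44, adjusted p = 0.102), without combination replicate 1 (0.47, adjusted p = 0.0994) and in a fit of parental libraries alone (adjusted p = 0.0517). After correction for GC content and length the values were 0.31 for LIFR and -0.37 for IL4R, both past the threshold.

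In PR cells, OSMR had 83.1 and 79.1 CPM in the combination against 117 and 111 CPM with 6.5 nM paclitaxel, and IL1R1 had 20.4 and 20.1 CPM against 40.3 and 39.0 CPM. OSMR changed by -0.49 ± 0.10 (adjusted p = 0.00613) and IL1R1 by -0.94 ± 0.08 (adjusted p = 1.99e-07), and no other member passed. The call of OSMR was lost without paclitaxel replicate 1 (-0.45, adjusted p = 0.0942) and without combination replicate 2 (-0.45, adjusted p = 0.0907). IL6 had 0.793 and 0.651 CPM in the combination against 1.30 and 0.986 CPM with paclitaxel, with a log2 fold change of -0.31 ± 0.14 (adjusted p = 0.307).

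The combination was also set against ruxolitinib alone. As labelled, these groups differ both in paclitaxel and in the ruxolitinib dose (15 nM against 15 µM), whose parts cannot be told apart. In parental cells IL6R had 52.3 and 52.0 CPM in the combination against 32.1 and 31.3 CPM with ruxolitinib and rose by 0.70 ± 0.08 (adjusted p = 3.39e-06). LIF rose by 0.52 ± 0.13 (adjusted p = 0.0165) and IL1R1 by 0.31 ± 0.08 (adjusted p = 0.0187). LIF lost its call without ruxolitinib replicate 1 (0.51, adjusted p = 0.128) or 2 (0.53, adjusted p = 0.108), without combination replicate 2 (0.44, adjusted p = 0.163), without the filter on low values (adjusted p = 0.0553) and among parental libraries alone (adjusted p = 0.104). IL1R1 lost its call without any one of the 4 libraries (0.29 to 0.33, adjusted p from 0.0799 to 0.158) and among parental libraries alone (adjusted p = 0.185). In PR cells no member passed this test, beside 0.0392% of all tested genes.

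Ruxolitinib alone changed 3 of 8 members in PR cells, all lower, beside 6.92% of all tested genes (2.86% higher and 4.06% lower). In parental cells 1 member rose and 6 fell, beside 13.2% (5.51% higher and 7.71% lower), and the median log2 fold change was -0.46 over the members and -0.01 over all tested genes. In the combination against paclitaxel, 2 members fell in PR cells beside 3.28% of all tested genes, and 1 rose and 5 fell in parental cells beside 27.9%. In the combination against ruxolitinib, 3 rose in parental cells beside 4.35%. Summed leukocyte markers were 7.39 to 8.84 CPM with ruxolitinib against 9.74 to 10.6 CPM in DMSO in PR cells, and 10.7 to 11.6 CPM against 18.1 to 19.4 CPM in parental cells. Their part in these results was not tested. The comparisons within a line share control libraries and are not independent of each other.

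Whether the lines responded differently was tested as a difference of log2 fold changes, resistant minus parental. For 1 µM doxorubicin the responses of 6 of 8 members differed, beside 58.3% of all tested genes. IL6 differed by -2.46 ± 0.20 (adjusted p = 5.53e-10), being 0.21 in DR cells and 2.67 in parental cells. LIF differed by 1.5 ± 0.18 (adjusted p = 2.25e-07), OSMR by 1.64 ± 0.14 (adjusted p = 2.09e-09), IL4R by 0.99 ± 0.17 (adjusted p = 2.87e-05) and IL1R1 by 1.86 ± 0.11 (adjusted p = 3.45e-12). For these 4 genes the log2 fold changes were 0.17, -0.21, 0.27 and -0.31 in DR cells and -1.33, -1.85, -0.73 and -2.17 in parental cells. IL6ST differed by -0.65 ± 0.20 (adjusted p = 0.00723), a call lost without parental DMSO replicate 2 (-0.43, adjusted p = 0.0633). The rise of IL6R missed the threshold for a difference, at -0.25 ± 0.11 (95% interval -0.47 to -0.02, adjusted p = 0.0537). It passed without parental DMSO replicate 2 (-0.32, adjusted p = 0.0240), without parental doxorubicin replicate 1 (-0.30, adjusted p = 0.0377), without DR DMSO replicate 2 (-0.30, adjusted p = 0.0429), without the filter (adjusted p = 0.0306), with median-of-ratios scaling (-0.32, adjusted p = 0.0127) and after correction for GC content and length (-0.37, adjusted p = 4.53e-04).

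For 10 nM paclitaxel 2 of 8 members differed between PR and parental cells, beside 10.8% of all tested genes. IL6R rose less in PR cells, with a difference of -0.96 ± 0.11 (95% interval -1.18 to -0.74, adjusted p = 3.92e-06). LIF rose in both, and the 95% interval of its difference was -0.29 to 0.45. LIFR differed by -0.61 ± 0.19 (adjusted p = 0.0419), with log2 fold changes of -0.38 in PR cells and 0.23 in parental cells, neither past the threshold. This call was lost without parental DMSO replicate 2 (-0.53, adjusted p = 0.112), without parental paclitaxel replicate 2 (-0.50, adjusted p = 0.144), without PR DMSO replicate 1 (-0.58, adjusted p = 0.129) or 2 (-0.64, adjusted p = 0.0903) and without PR paclitaxel replicate 1 (-0.55, adjusted p = 0.154). It was also lost without the filter (adjusted p = 0.0836), with replicate number as a block (adjusted p = 0.0512) and in a fit of these lines alone (adjusted p = 0.0583).

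For 15 µM ruxolitinib IL6 alone differed, by 0.90 ± 0.20 (adjusted p = 0.0342), beside 0.408% of all tested genes. This value rests on the added 1 CPM, since IL6 is near 1 CPM in PR cells. With 0.25 CPM added it was 0.58 (adjusted p = 0.661) and in a weighted fit to the recovered reads 0.30 (adjusted p = 0.922). It also lost its call without the filter (adjusted p = 0.0786) and without any one of 6 of the 8 libraries, which were parental DMSO replicate 2 (0.86, adjusted p = 0.159), parental ruxolitinib replicate 2 (0.76, adjusted p = 0.273), PR DMSO replicates 1 (0.81, adjusted p = 0.260) and 2 (0.99, adjusted p = 0.0643) and PR ruxolitinib replicates 1 (0.93, adjusted p = 0.107) and 2 (0.88, adjusted p = 0.175). For OSMR and IL1R1 the differences were 0.31 ± 0.14 (95% interval 0.01 to 0.60, adjusted p = 0.725) and 0.30 ± 0.11 (95% interval 0.08 to 0.53, adjusted p = 0.445). For LIF it was 0.63 ± 0.18 (adjusted p = 0.175), and it passed without parental DMSO replicate 1 (0.87, adjusted p = 0.00914), as did IL4R (0.73, adjusted p = 0.0451, against 0.55 ± 0.17 with all libraries). After correction for GC content and length LIF (0.56, adjusted p = 0.00667), IL6R (0.33, adjusted p = 0.0426), OSMR (0.34, adjusted p = 0.0423), IL4R (0.48, adjusted p = 0.0275) and IL1R1 (0.35, adjusted p = 0.0378) also passed.

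The response to the low paclitaxel dose with and without ruxolitinib was compared in each line. The arms with ruxolitinib differ in its labelled dose (15 nM in the combination, 15 µM alone), so this is a test of an altered paclitaxel response only if the doses were in fact the same. No gene was called in either, 0% of all tested genes, with 305 genes in PR cells and 1515 genes in parental cells at an unadjusted p under 0.05 in limma, and none in the weighted fit to the recovered reads. Among the members the difference was 0.55 ± 0.11 for IL1R1 in parental cells (adjusted p = 0.163). It passed only without the filter on low values (adjusted p = 0.00839), where 5 genes of the whole table were called.

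**Figure D5:**
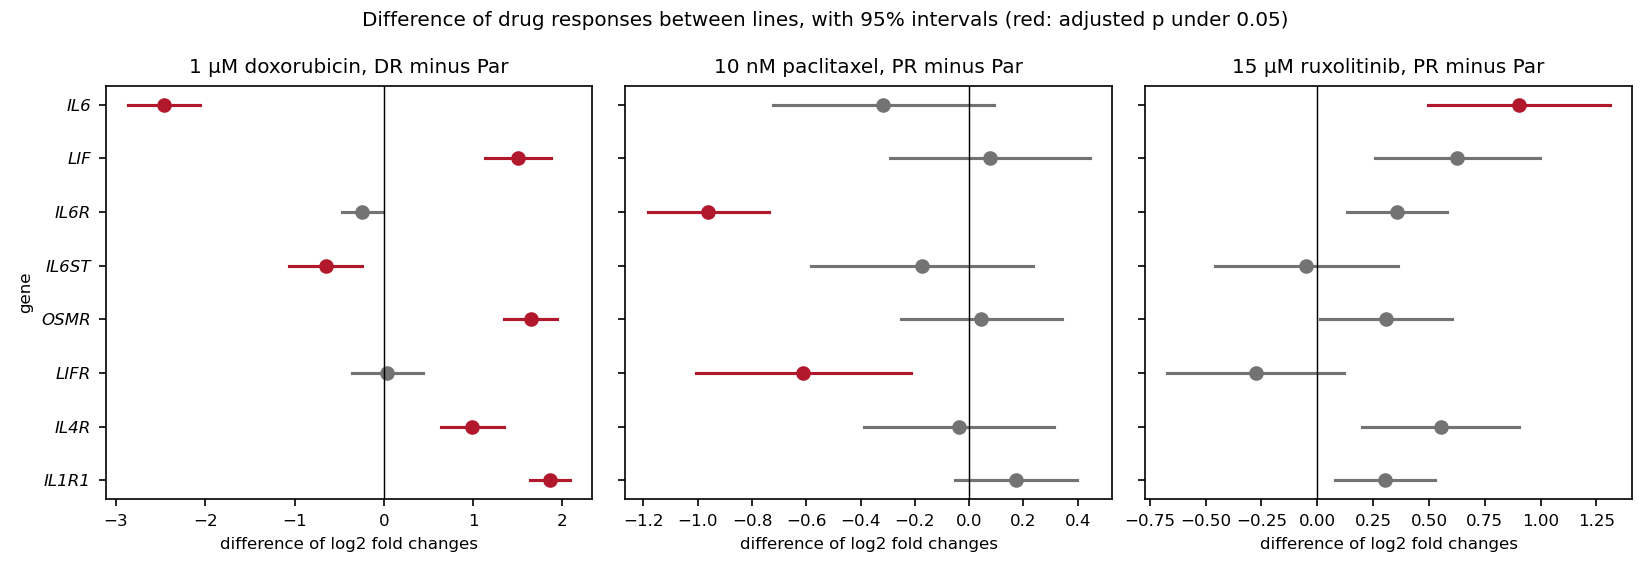
Difference of log2 fold changes between lines for each member, with 95% intervals, for 1 µM doxorubicin (DR minus parental), 10 nM paclitaxel and 15 µM ruxolitinib (both PR minus parental); red marks an adjusted p under 0.05 and x axes differ between panels. For doxorubicin IL6 lies far left (-2.46) and IL1R1, OSMR and LIF far right (1.86, 1.64 and 1.5), and for paclitaxel IL6R lies at -0.96.

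The other genes of these pathways were taken from lists of 68 genes, all in the table, of which 54 were tested. Other ligands of the family were low: CNTF reached at most 7.15 CPM, IL11 at most 1.88 CPM and CLCF1 at most 3.14 CPM in any library, and OSM, which encodes oncostatin M, at most 0.511 CPM. IL4 and IL13, ligands of receptors that contain IL4R, reached at most 0.0406 and 0.241 CPM. JAK1 (123 to 180 CPM), STAT3 (142 to 263 CPM) and IL13RA1 (140 to 230 CPM), the chain that pairs with IL4R, were abundant in every library.

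At baseline, 5 of the 54 genes rose and 14 fell in DR against parental cells, beside 12.3% of all tested genes higher and 15.2% lower, with a median log2 fold change of -0.06 against -0.01 over all tested genes. In PR against parental cells 7 rose and 19 fell, beside 16.3% higher and 16.3% lower, with a median of -0.13 against -0.01. The kinases JAK1 and JAK2 passed the test in neither line, at -0.01 and 0.10 in DR cells and -0.11 and -0.03 in PR cells. STAT3, the transcription factor activated through IL6ST, fell by 0.22 in DR cells (adjusted p = 0.0228) and by 0.26 in PR cells (adjusted p = 0.00733). SOCS3, its target and feedback inhibitor, averaged 5.14 CPM in DR cells, 2.94 CPM in PR cells and 7.48 CPM in parental cells, with log2 fold changes of -0.47 ± 0.18 (adjusted p = 0.0484) in DR cells and -1.11 ± 0.18 (adjusted p = 2.74e-05) in PR cells. The interleukin-1 receptor antagonist IL1RN averaged 36.0 CPM in DR cells, 10.7 CPM in PR cells and 67.0 CPM in parental cells (-0.88 in DR cells, adjusted p = 6.51e-07, and -2.53 in PR cells, adjusted p = 1.08e-14).

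The decoy receptor IL1R2 was also lower in both lines (-1.10 in DR cells, adjusted p = 1.79e-07, and -1.44 in PR cells, adjusted p = 1.75e-09), at means of 0.421 CPM in DR cells, 0.124 CPM in PR cells and 2.04 CPM in parental cells. In DR cells STAT4 was higher (1.00, adjusted p = 9.42e-07) and the feedback inhibitor SOCS1 lower (-0.74, adjusted p = 0.00292), both against parental cells. Between DR and PR cells none of the 8 tested JAK and STAT genes passed the test, STAT4 among them. SOCS1 averaged 0.650 CPM in DR cells and 1.76 CPM in parental cells. In PR cells IL1B, which encodes a ligand of IL1R1, was lower (-1.30, adjusted p = 5.63e-07), at 0.518 CPM in PR cells and 2.75 CPM in parental cells.

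Under 1 µM doxorubicin 12 of the 54 genes rose and 11 fell in DR cells, beside 39.1% of all tested genes called, with a median of 0.04 against 0.00 over all tested genes. In parental cells 20 rose and 25 fell, beside 75.8% of all tested genes called, with a median of -0.08 against -0.07. On the log2(CPM + 1) scale IL1RN (-2.27), RHBDF2 (-2.12), IRAK3 (-1.96) and IL1B (-1.74) changed most in parental cells, with adjusted p from 4.50e-15 to 5.31e-10. IL1B averaged 0.122 CPM at 1 µM against 2.75 CPM in DMSO there, so the added 1 compresses its change. RHBDF2 encodes a cofactor of ADAM17, the protease that sheds IL6R, and IRAK3 an inhibitor of interleukin-1 receptor signalling. JAK2 fell by 0.74 (adjusted p = 2.11e-05), SOCS3 rose by 0.70 (adjusted p = 0.00102) and STAT3 was at 0.06 (adjusted p = 0.451). In DR cells the largest were IL1B (-1.06), IRAK2 (1.05), IL31RA (0.88) and IL1A (-0.82), and STAT3 rose by 0.21 (adjusted p = 0.0265) and SOCS3 by 0.47 (adjusted p = 0.0380). IL1B averaged 0.226 CPM at 1 µM against 1.55 CPM in DMSO in DR cells, IL1A 0.121 against 0.976 CPM and IL31RA 1.71 against 0.479 CPM.

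Under 10 nM paclitaxel 5 of the 54 genes rose and 7 fell in PR cells, beside 13.6% of all tested genes called, with a median of 0.04 against 0.00. In parental cells 17 rose and 13 fell, beside 48.2% called, with a median of 0.09 against -0.04. IRAK2, a kinase of the interleukin-1 pathway, rose by 0.94 ± 0.12 in PR cells (adjusted p = 1.75e-05) and by 1.85 ± 0.12 in parental cells (adjusted p = 6.77e-11). IL13RA2, a decoy receptor for interleukin-13, averaged 0.860 CPM at 10 nM against 0.0826 CPM in DMSO in PR cells and 4.96 CPM against 0.864 CPM in parental cells. In parental cells JAK2 fell by 0.56 (adjusted p = 0.00116) and STAT3 by 0.30 (adjusted p = 0.00141), whereas JAK1 was at -0.10 (adjusted p = 0.306). CNTF, a ligand of the family, rose there by 0.93 (adjusted p = 6.54e-06).

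Under ruxolitinib 1 of the 54 genes rose and 7 fell in PR cells, beside 2.86% of all tested genes higher and 4.06% lower, with a median of -0.06 against 0.00. In parental cells 0 rose and 18 fell, beside 5.51% higher and 7.71% lower, with a median of -0.18 against -0.01. On the log2(CPM + 1) scale SOCS3 had the largest change in both lines. It averaged 0.528 CPM with ruxolitinib against 2.94 CPM in DMSO in PR cells (-1.35 ± 0.18, adjusted p = 1.76e-05). In parental cells it averaged 0.768 CPM against 7.48 CPM (-2.25 ± 0.18, adjusted p = 2.80e-09). CEBPD, a transcription factor that binds C/EBP sites, fell by 0.52 in PR cells (adjusted p = 0.00881) and by 1.19 in parental cells (adjusted p = 2.45e-07). STAT3 fell by 0.29 in PR cells (adjusted p = 0.0129) and by 0.59 in parental cells (adjusted p = 3.66e-06). In parental cells ZC3H12A, which encodes a ribonuclease that degrades IL6 mRNA, fell by 0.80 (adjusted p = 9.00e-04), and IL1B by 0.81 (adjusted p = 8.14e-04). JAK1 and JAK2 passed the test in neither line.

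Genes with the pattern most like IL6, LIF and IL6R were sought by Pearson's r over the 15 group means of log2(CPM + 1), among 10916 other genes. For IL6 these were FLNA (r = 0.979), FAM103A1 (r = 0.965) and ARRDC3 (r = 0.961). For LIF they were ZNF205 (r = 0.954), BCL2L1 (r = 0.951) and BAG3 (r = 0.942), and for IL6R ZNF473 (r = 0.959) and ECM1 (r = 0.950). Several of the 15 groups come from the same line, and parental cells with 1 µM doxorubicin weigh heavily on the IL6 values. These r values are therefore descriptions. Among the members themselves the same measure was highest for IL6 with IL6ST (r = 0.869), LIF with IL4R (r = 0.789) and OSMR with IL4R (r = 0.717), and lowest for IL6 with LIFR (r = -0.657).

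In the order of group means, the libraries of neighbouring groups overlapped in 6 of 14 steps for IL6, 9 for LIF, 5 for IL6R and 10 for IL6ST. The same count was 7 for OSMR, 11 for LIFR, 9 for IL4R and 6 for IL1R1. It was not made over all genes, so whether these counts are unusual is not known. For IL6 the 5 PR groups took the 5 lowest places, 0.456 to 1.24 CPM, below the 3 DR groups (3.59 to 5.57 CPM). Among the parental groups, those with ruxolitinib were lowest, at 4.94 CPM alone and 6.45 CPM in the combination, and the libraries of parental cells with ruxolitinib overlapped those of DR cells in DMSO. For LIFR the highest 4 groups were all PR groups, 17.1 to 22.6 CPM. For OSMR the highest 4 groups were parental ones without ruxolitinib, 177 to 215 CPM. IL6, LIF, IL6R, LIFR and IL1R1 overlap annotated antisense genes, which are not used here, OSMR overlaps RICTOR, and IL6R and IL6ST have pseudogenes. Whether reads were counted by strand is not given in the sources used here, so reads of such neighbours cannot be told apart from theirs.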

How the data were processed

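SUM190 libraries, 30 in all, were grouped by the labels. STAR 2.5.1b alignments to GRCh37 (hg19) and edgeR are named in the submitters' processing notes; the sources used here give neither the read counter nor the annotation. The deposited values are log2(CPM + 1), which the authors computed from CPM scaled by TMM factors. Dividing each library by its smallest step returned whole reads for all values, within 0.01, and so the depth of each library.

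The deposited log2 values were modelled with limma 3.58.1 (R 4.3.3), with 1 mean per group, on the 12743 genes that reached 1 CPM in 2 or more libraries. Variances were shared over the 15 groups and moderated with a trend and robust estimation (15 residual degrees of freedom, median prior 8.08). Two-sided p values were Benjamini-Hochberg adjusted within each of 22 comparisons, 17 between a pair of groups and 5 between responses, and 0.05 was the threshold. The fit was also run on simulated counts, only for each resistant line against parental cells in DMSO. These counts held no GC-linked differences between replicates, and the outcome is not reported here. Python 3.11.15 with pandas 2.3.3 handled the tables.

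All 8 members were described. From the pathway lists the text names JAK1, JAK2, STAT3, SOCS3 and up to 4 called genes with the largest change in a comparison, as well as the 3 genes most like IL6, LIF and IL6R in pattern. Some genes that fall under these rules are not reported here. CNTF, IL11, CLCF1, OSM, IL4, IL13 and IL13RA1 were named for their levels after these were seen. Members, lists and tests were chosen with earlier results of these data known. The alternatives tried were adding 0.25 CPM instead of 1, keeping all genes, a block for replicate number, scaling by median of ratios, correcting each library for GC content and transcript length (from GENCODE v29, known for 95.3% of tested genes), that correction together with the block, fitting only the lines compared, voom on the recovered reads (the weighted fit of the text), and omitting each library in turn, whose partner is then taken to vary as other groups do. Crossing the replicate numbers was added after seeing the data.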

Additional observations from a re-analysis of the deposited data

Results flagged for a closer look

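In 9 cases the response of a member to the same dose differed between a resistant line and parental cells in limma's test of the difference itself, with 2 libraries in each group. Groups of 2 are too small for a test of single samples that stand apart, so no such result is given. The values are differences of log2 fold changes, resistant minus parental.

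For 1 µM doxorubicin they were -2.46 for IL6, 1.5 for LIF, -0.65 for IL6ST, 1.64 for OSMR, 0.99 for IL4R and 1.86 for IL1R1 (DR minus parental). In parental cells IL6 rose and LIF, OSMR and IL1R1 fell, whereas in DR cells the log2 fold changes of IL6, LIF and OSMR missed the threshold (OSMR passed after correction for GC content and length and in a fit of those lines alone). That dose changed 75.8% of all tested genes in parental cells, and its response differed between these lines for 58.3% of all tested genes. The difference of IL6ST lost its call without parental DMSO replicate 2 (-0.43).

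For 10 nM paclitaxel they were -0.96 for IL6R and -0.61 for LIFR (PR minus parental). The response differed for 10.8% of all tested genes. LIFR lost its call without the filter on low values, with the replicate block, in a fit of these lines alone and without some single libraries. IL6R rose in both lines.

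For 15 µM ruxolitinib the value was 0.90 for IL6 (PR minus parental), which fell in both lines. The response differed for 0.408% of all tested genes. IL6 lost this call in limma with 0.25 CPM added (0.58, adjusted p = 0.661) and in the weighted fit to the recovered reads (0.30, adjusted p = 0.922). The ratio of mean CPM with ruxolitinib to that in DMSO was 0.369 in PR cells and 0.310 in parental cells.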

How the results depend on the processing

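Of 67 called member values among 176 tested, 44 kept their call under every alternative that was run for them, and no called value changed sign. Calls were lost and gained as follows: 1 and 0 with 0.25 CPM added, 6 and 4 without the filter on low values, 0 and 3 with median-of-ratios scaling, 1 and 15 after correction for GC content and length, 1 and 12 with that correction and the block, 10 and 5 in fits of only the lines compared, 1 and 1 with voom, and 55 and 9 over 864 values that leave out 1 library. The replicate block lost 2 calls and gained 0: LIFR under ruxolitinib in parental cells (0.41, adjusted p = 0.0588) and LIFR in the difference for 10 nM paclitaxel (-0.61, adjusted p = 0.0512). Labels give replicate numbers only, and the correlation of replicate differences between groups ran from -0.69 to 0.65 (median 0.00), so the numbers are not shown to pair libraries. With the numbers crossed in 3 comparisons, 0 of 15 calls changed.

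The number of members called, against that in the report, was 2 against 1 after the GC and length correction for 350 nM doxorubicin in DR cells. For 1 µM in DR cells it was 5 against 3 after that correction, with or without the block, and among those lines alone. For 10 nM paclitaxel in PR cells it was 4 against 2 in the same 3 fits. Among parental libraries alone it was 4 against 7 for ruxolitinib and 1 against 3 for the combination against ruxolitinib. For the difference in 10 nM paclitaxel it was 1 against 2 without the filter, with the replicate block and among those lines alone. For the difference in ruxolitinib it was 0 against 1 with 0.25 CPM added, without the filter and with voom, 6 after the GC correction and 4 with the block and that correction. For paclitaxel under ruxolitinib in parental cells it was 1 against 0 without the filter. Leaving out 1 library gave 4 to 4 members for DR against parental cells, 5 to 6 for PR against parental, 2 to 4 for DR against PR, 1 to 1 and 2 to 3 for 350 nM and 1 µM doxorubicin in DR cells, 0 to 0 and 2 to 2 for 6.5 and 10 nM paclitaxel in PR cells, 1 to 4 and 3 to 4 for 2.5 and 10 nM paclitaxel in parental cells, 1 to 3 and 7 to 8 for 65 nM and 1 µM doxorubicin in parental cells, 2 to 3 and 3 to 7 for ruxolitinib in PR and parental cells, 1 to 2 and 5 to 6 for the combination against paclitaxel in PR and parental cells, 0 to 0 and 1 to 2 for the combination against ruxolitinib in PR and parental cells, 6 to 7, 1 to 2 and 0 to 3 for the differences in doxorubicin, paclitaxel and ruxolitinib, and 0 to 0 for both differences of paclitaxel under ruxolitinib.

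Counts over all genes moved by more than 1.5 times after the GC and length correction, in fits of fewer lines and on leaving out 1 library. Some small counts also moved that far without the filter on low values and with voom. Without the filter there were 0 against 5 for the combination against ruxolitinib in PR cells. For paclitaxel under ruxolitinib in parental cells there were 5 against 0. With voom there were 5 against 12 for 6.5 nM paclitaxel in PR cells. For the combination against ruxolitinib in PR cells voom gave 1 against 5. Without 1 library there were 2280 to 3332 calls against 3505 for DR against parental cells, 130 to 264 against 486 for 350 nM doxorubicin in DR cells, 1 to 4 against 12 and 696 to 1135 against 1735 for 6.5 and 10 nM paclitaxel in PR cells, 476 to 5172 against 3414 for 2.5 nM paclitaxel and 240 to 2527 against 1421 for 65 nM doxorubicin in parental cells, 358 to 407 against 882 and 751 to 1727 against 1685 for ruxolitinib in PR and parental cells, 141 to 172 against 418 and 736 to 3618 against 3561 for the combination against paclitaxel, 0 to 1 against 5 and 200 to 278 against 554 for the combination against ruxolitinib, 639 to 1573 against 1370 and 25 to 92 against 52 for the differences in paclitaxel and ruxolitinib, and 0 to 12 against 0 for paclitaxel under ruxolitinib in parental cells. After that correction there were 5371 against 3505 for DR against parental cells, 1781 against 486 for 350 nM doxorubicin in DR cells, 2905 against 1421 for 65 nM in parental cells, 105 against 12 and 3563 against 1735 for 6.5 and 10 nM paclitaxel in PR cells, 2039 against 882 and 3581 against 1685 for ruxolitinib in PR and parental cells, 1329 against 418 for the combination against paclitaxel in PR cells, 65 against 5 and 2029 against 554 for the combination against ruxolitinib in PR and parental cells, 3444 against 1370 and 260 against 52 for the differences in paclitaxel and ruxolitinib, and 3 and 4 against 0 for paclitaxel under ruxolitinib in PR and parental cells. In fits of only the lines compared there were 1000 against 3414 for 2.5 nM paclitaxel, 461 against 1421 for 65 nM doxorubicin, 775 against 1685 for ruxolitinib, 1428 against 3561 and 172 against 554 for the combination against paclitaxel and against ruxolitinib in parental cells, and 114 against 12, 3745 against 1735, 2102 against 882, 1047 against 418 and 79 against 5 in PR cells for 6.5 and 10 nM paclitaxel, ruxolitinib, and the combination against paclitaxel and against ruxolitinib. The cause was not tested. IL6 in PR cells, at 9 reads or more per library, is the member that depth limits most.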
